A study of Rattus norvegicus with 12 samples.

Results

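The comparison described here sets 4 libraries of rat ovarian theca-interstitial cells cultured with interleukin-1β (IL-1β) against 4 libraries of the same cells cultured with vehicle. These were 8 of the 12 libraries of the series, chosen by their treatment labels, and the other 4 had received lipopolysaccharide (LPS, 1 µg/ml). A gene entered the comparison if its counts passed a filter on low values, which 17330 of 30045 genes in the table did. All cells came from wild type female Sprague Dawley rats on postnatal day 30, grew in McCoy's 5A medium on plates coated with human fibronectin, and were taken after 48 h. Control cultures received vehicle, and treated cultures received rat IL-1β at a dose that the labels used here do not give. Polyadenylated RNA was sequenced with a stranded kit. The labels do not say whether the 4 replicates of a group came from separate rats or separate isolations, and the p-values therefore speak only to how far these libraries spread.

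Theca-interstitial cells lie in the wall of the follicle and in the stroma of the ovary, where luteinizing hormone drives them through cAMP to turn cholesterol into androgens. IL-1β is a cytokine of inflammation and also rises around ovulation. It binds a receptor that recruits MyD88, IRAK kinases and TRAF6, which frees the transcription factor NF-κB to enter the nucleus, and NF-κB then acts with C/EBPβ, C/EBPδ and, by way of IL-6, STAT3 on genes of chemokines and acute-phase proteins.

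Library totals lay between 20873934 and 32090924 counts in control cultures and between 23193408 and 26836323 counts with IL-1β, so depth did not separate the groups. Genes of ribosomal proteins held a share of 2.50% ± 0.0402 in the control libraries and 2.74% ± 0.0237 in the IL-1β libraries (SD, n = 4 each), without overlap (two-sided exact permutation test over 70 arrangements, p = 0.0286, the smallest it can give, adjusted p = 0.0572 over 6 properties). In a principal component analysis of the 8 libraries component 1 set the groups apart and held 71.7% of the variance. On the next component, with 5.69%, IL-1β replicate 4 stood apart at -20.9, and the other 7 libraries lay between -4.32 and 9.92. Levels below are CPM, the count of a gene scaled to a common library total, as mean ± SD of the 4 libraries of a group where one value is given, and changes are log2 fold changes ± SE of IL-1β minus control. A gene is said to rise or fall where its adjusted p was under 0.05 in edgeR's quasi-likelihood test over all genes tested.

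With IL-1β 4273 genes rose, 24.7% of those tested, and 3988 fell, 23.0%. Together these were 47.7% of all genes, so counts of list members below stand beside that share. In 7653 genes, 44.2%, no IL-1β library overlapped a control library. Most changes were small. Of the called genes, 4149, or 50.2%, differed by less than 1.25-fold, and 1809 by 1.25-fold to 1.5-fold. A change of at least 2-fold was found in 666 genes that rose, 3.84% of those tested, and in 409 that fell, 2.36%. At 8-fold and above the numbers were uneven, with 38 genes higher and 6 lower. The share of genes called grew with abundance, from 22.2% of genes under 1 CPM to 67.9% of genes at 100 CPM or more. The median log2 fold change of all genes was 0.01. When libraries were scaled by their totals alone, it moved to 0.06, 5558 genes were higher and 3118 lower, and the share of calls that were higher went from 51.7% to 64.1%, so directions of very small changes rest on the scaling.

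**Figure D1:**
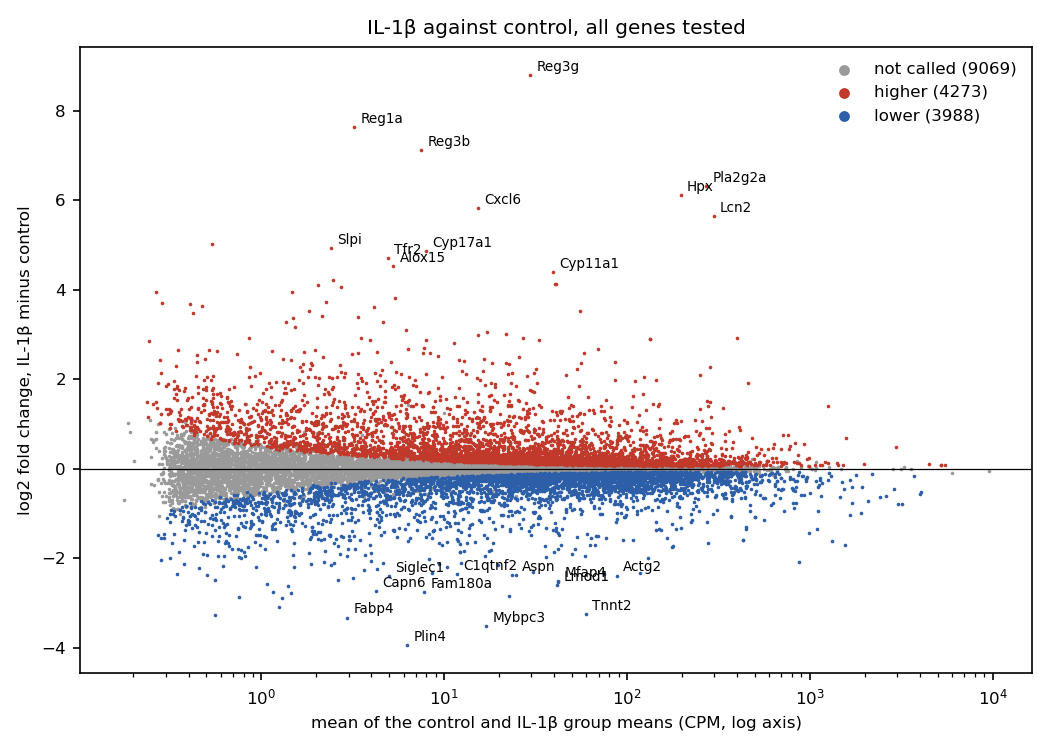
Log2 fold change of IL-1β minus control (vertical axis) against the mean of both group means in CPM (horizontal log axis) for 17330 genes, 1 point per gene. Red marks 4273 genes that rose, blue 3988 that fell and grey 9069 not called. The extreme points above are Reg3g, Reg1a and Reg3b, and the lowest is Plin4.

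Markers of theca and ovarian stroma were present in all libraries, as the label of the cells says, and so were markers of other cells. Of 12 theca and stroma markers 8 rose and 3 fell (median log2 fold change 0.54). Their summed level was 5810 to 6490 CPM in control libraries and 4980 to 5450 CPM with IL-1β. Col1a1 held most of that sum and fell from 4772 ± 332 to 3337 ± 211 CPM, so the sum mainly follows this gene. All 14 endothelial markers rose (median log2 fold change 1.13), and their sum went from between 208 and 242 CPM to between 451 and 509 CPM. Vwf, the clotting factor stored by endothelial cells, rose from 4.89 ± 0.469 to 21.3 ± 1.72 CPM (2.12 ± 0.09, adjusted p = 7.55e-16), and the vascular endothelial cadherin gene Cdh5 rose by 1.05 ± 0.10. In bulk samples, more or fewer cells of a type and more or less RNA per cell cannot be told apart.

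Of 15 macrophage markers 11 fell and 1 rose (median -0.80). Their sum was 134 to 143 CPM in control libraries and 74.5 to 80.6 CPM with IL-1β, without overlap. Emr1, the F4/80 antigen, stood at 18.8, 16.9, 16 and 18.7 CPM in the control libraries and at 6.3, 5.12, 6.07 and 6.33 CPM with IL-1β (-1.57 ± 0.08, adjusted p = 5.47e-16). Siglec1, a receptor of tissue macrophages, fell by 5.29-fold. Cd5l, a secreted macrophage protein, had 43 counts over the control libraries and 0 over the IL-1β libraries, at least 13.3-fold lower against a floor of 3 counts over the group. The marker that rose was Cd163, the scavenger receptor for haemoglobin bound to haptoglobin, at 0.0317, 0.0781, 0 and 0.0988 CPM in control libraries and 1.07, 0.634, 0.695 and 0.641 CPM with IL-1β (3.68 ± 0.46, adjusted p = 1.11e-07). It lay near the floor in the control libraries, so the size of its change is uncertain.

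Granulosa markers rose in 7 of 10 cases (median 0.84), with sums of 1090 to 1130 CPM against 1620 to 1920 CPM. Inhbb, the βB subunit of inhibin and activin, was at 27.8, 33.6, 32.1 and 38.1 CPM in control libraries. With IL-1β it was at 92, 94.7, 59.3 and 49.5 CPM, and replicates 1 and 2 lay well above replicates 3 and 4 (1.17 ± 0.28, adjusted p = 0.00697). Hsd17b1, which makes estradiol from estrone, showed the same order of IL-1β libraries, 20.2, 23.2, 6.58 and 6.24 CPM, overlapped the control libraries at 2.28, 5.23, 7.51 and 8.86 CPM and was not called (adjusted p = 0.145). Anti-Müllerian hormone, Amh, fell (-1.23 ± 0.27).

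Oocyte genes were also present. The zona pellucida gene Zp2 was at 76.9, 76, 75.9 and 73.7 CPM in control libraries and at 49.7, 58.7, 51 and 45.4 CPM with IL-1β. It was the 1 of 8 oocyte markers called lower (-0.56 ± 0.15, adjusted p = 0.013). A fit of the 8 libraries alone and the replicate block called 5 of 8 lower, and limma-voom 4. All 8 changes were negative, from -0.61 to -0.33 (median -0.52), and in 5 the groups did not overlap. Sums were 137 to 154 CPM in control libraries and 81.4 to 114 CPM with IL-1β. The alpha globin genes Hba1 and Hba2 rose (0.48 ± 0.05 and 0.56 ± 0.07), whereas the erythroid genes Hbb, Alas2 and Slc4a1 had too few counts to be tested, with 35, 15 and 9 over the control libraries and 18, 21 and 6 over the IL-1β libraries. None of 7 neutrophil markers had enough counts to be tested, and S100a8 had 2 counts over the control libraries and 6 over the IL-1β libraries. Of 9 pericyte and smooth muscle markers 3 rose and 5 fell (sums 2820 to 3070 and 1280 to 1460 CPM). Of 9 markers of surface epithelium and mesothelium 4 rose, among them Msln at 3.17 ± 0.25, and 3 fell, among them Krt18 at -2.01 ± 0.09, with sums of 84.3 to 87.8 CPM in control libraries and 88.2 to 95.6 CPM with IL-1β. Of 5 lymphocyte markers tested Cd4 (-1.47 ± 0.08) and Cd79a (-0.68 ± 0.13) fell, with sums of 19.2 to 21.2 CPM and 9.87 to 11.3 CPM. Cd8a was called higher (0.56 ± 0.22, adjusted p = 0.0369), a call lost in 8 of 18 alternatives (0.466 to 0.587, adjusted p = 0.0507 to 0.122). These were DESeq2, no low-count filter, and leaving out control replicate 1, 3 or 4 or IL-1β replicate 2, 3 or 4.

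**Figure D2:**
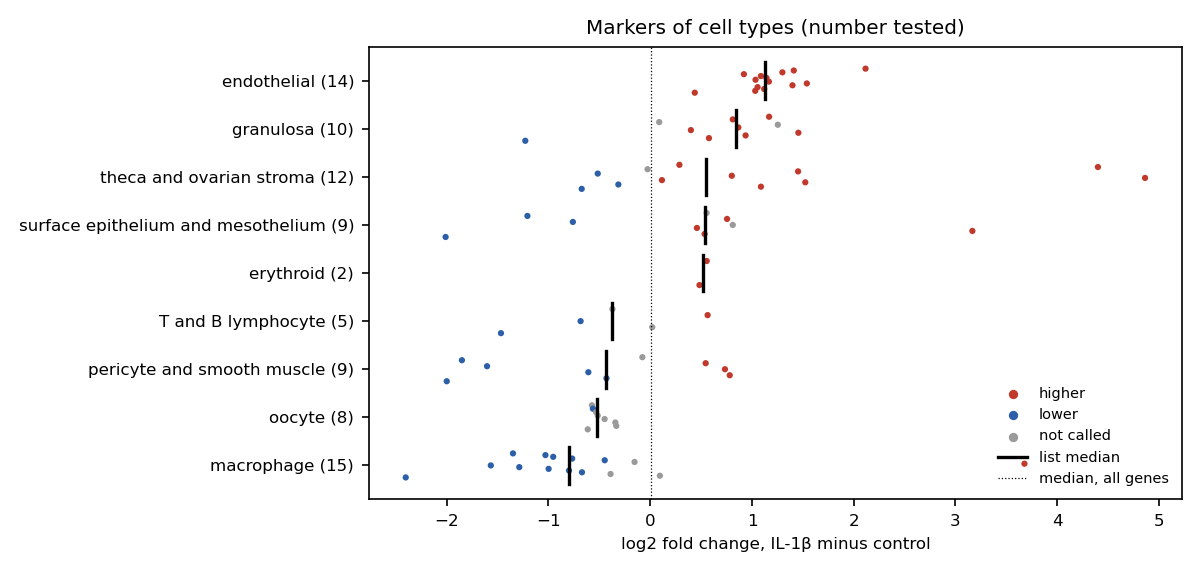
Log2 fold change (horizontal axis) of each tested marker of 9 cell types, 1 point per gene, with the number tested in brackets and the list median as a black bar. Red points rose, blue points fell and grey points were not called. All 14 endothelial markers lie to the right of the median of all genes, and 11 of 15 macrophage markers fell.

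The IL-1 receptor pathway itself changed little, and its largest rises were in inhibitors. Of 25 genes from ligands to kinases 7 rose and 4 fell (median 0.05). Sigirr, a decoy-like member of the IL-1 receptor family that damps signalling, rose by 1.32 ± 0.20, and Irak3, an IRAK that blocks release of the active kinases, rose by 0.99 ± 0.07. Map3k8, a kinase that links the receptor to ERK, rose by 0.71 ± 0.10. On the other side, the signalling receptor Il1r1 fell slightly (-0.19 ± 0.03), as did the inhibitors Tollip (-0.45 ± 0.03) and Il1rn, the natural receptor antagonist (-0.69 ± 0.14). The gene of the cytokine, Il1b, was not called (-0.06 ± 0.23, adjusted p = 0.846). Scaling by library totals alone gave 12 of the 25 genes higher in place of 7.

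NF-κB subunits and the proteins that feed back on them rose in 16 of 22 cases and fell in 2 (median 0.53, against 0.01 over all genes). Bcl3, a nuclear IκB that binds p50 and p52, was at 8.19, 6.91, 6.68 and 6.65 CPM in control libraries and 37.7, 36.3, 36.4 and 35.6 CPM with IL-1β (2.35 ± 0.06, adjusted p = 5.91e-22). Nfkbiz, the related nuclear IκBζ needed for genes such as Lcn2, was at 16.1, 12.7, 14 and 13.2 CPM in control libraries and 44.3, 46.8, 47.1 and 48.6 CPM with IL-1β (1.73 ± 0.06, adjusted p = 2.89e-19). For both genes all 4 IL-1β libraries lay above all 4 control libraries. Smaller rises were found in the deubiquitinase Tnfaip3, or A20 (1.25 ± 0.04), the RNase Zc3h12a, or regnase-1 (1.26 ± 0.05), the adaptor Traf1 (1.33 ± 0.11), the non-canonical subunit Relb (0.94 ± 0.04) and the classical inhibitor Nfkbia (0.82 ± 0.04). Rela, the main activating subunit, rose by 0.24 ± 0.03. The deubiquitinase Cyld (-0.24 ± 0.04) and the ubiquitin ligase Birc2 (-0.64 ± 0.04) fell.

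**Figure D3:**
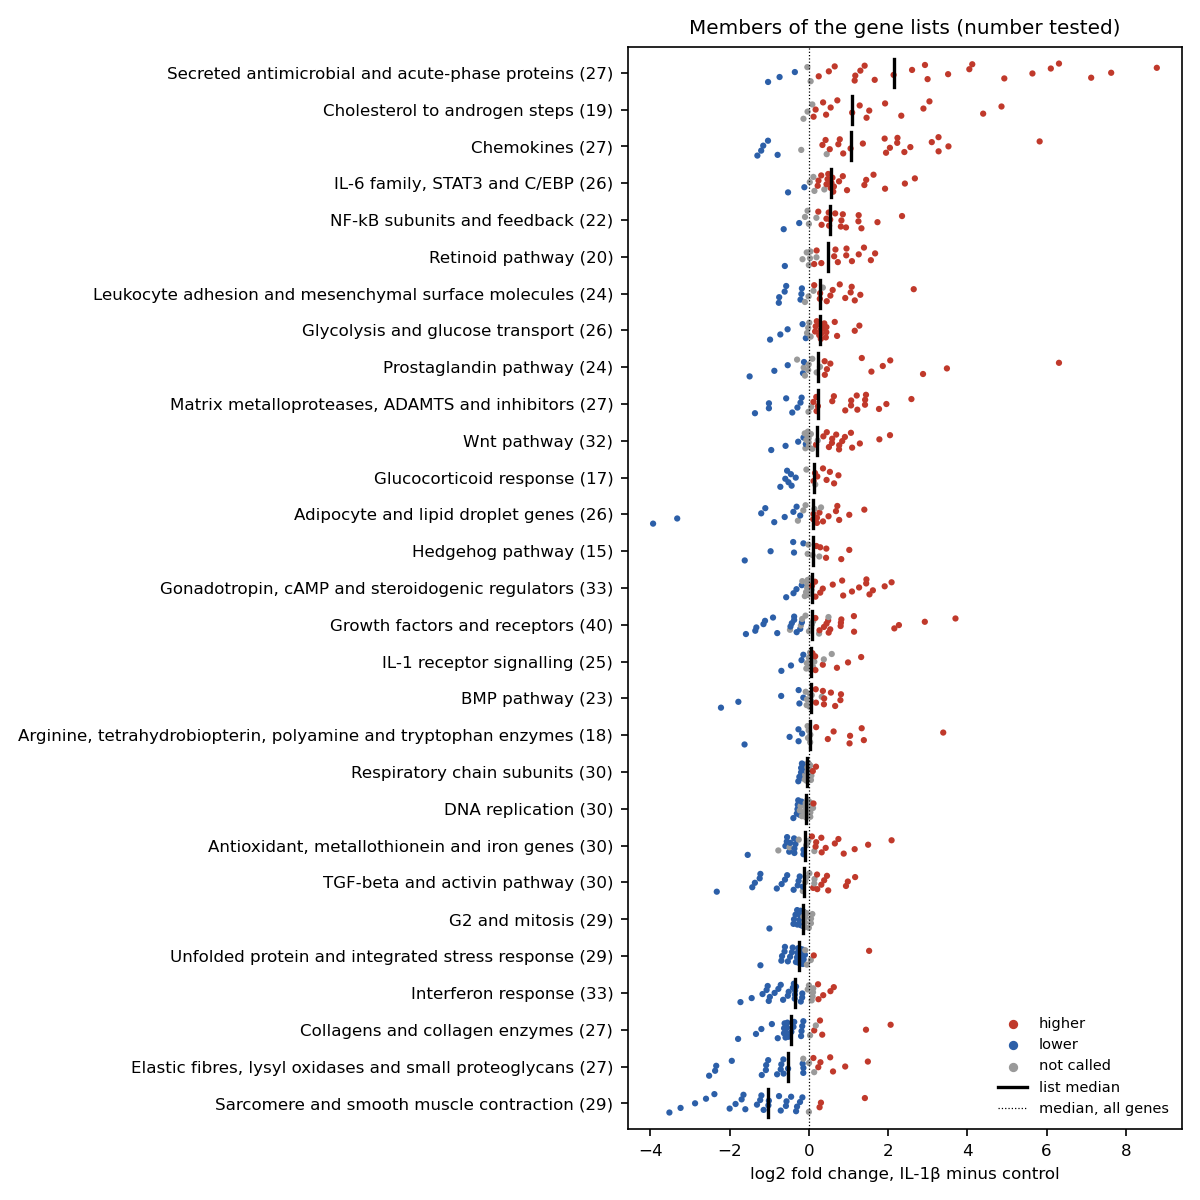
Log2 fold change of IL-1β minus control (horizontal axis) for the tested members of 29 gene lists, 1 point per gene, with the number tested in brackets, ordered by the list median (black bar). Red points rose, blue points fell and grey points were not called. Secreted antimicrobial and acute-phase proteins have the highest median, 2.14, and sarcomere and smooth muscle contraction the lowest, -1.02.

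Promoter sequences show where these genes carry the letters of an NF-κB motif. The motif, GGG, any 2 bases, TT, any base and CC, was searched on both strands in the 250 bases upstream of the start of each gene, overlaps counted, in RefSeq promoters of the assembly GRCr8. A promoter was found for 11540 of 17330 genes tested. The motif stood in 8 of the 19 NF-κB list promoters, 42.1%, against 4.73% of all genes tested and 4.28% of 27457 promoters in the table. It also stood in 35 of 411 genes that rose at least 2-fold, 8.52%, and in 18 of 254 that fell at least 2-fold, 7.09%. The 8 genes were Bcl3, Nfkb2, Nfkbia, Nfkbiz, Rel, Tnfaip3, Tnip1 and Traf3. Of these all but Traf3 (0.00 ± 0.04) rose, including Nfkb2 (0.66 ± 0.03), Rel (0.44 ± 0.12) and Tnip1 (0.86 ± 0.03). The promoter of Lcn2 held no match. Other motifs were searched in the same way. TTNNGNAA (C/EBP, N any base) stood in 13 of 18 acute-phase promoters, 72.2%, against 28% of all genes tested. AAGGTCA (Nr5a1) stood in 0 of 10 promoters of the cholesterol to androgen list, against 2.54%. The CArG box (CC, a run of A or T, GG) stood in 3 of 23 contraction promoters, 13%, against 1.23%, and not in Acta2, Actg2 or Cnn1. A match describes letters and was not tested as a binding site. The 4 members of the NF-κB list below are shown because they are the inhibitors and feedback proteins named above. Each is given as 150 bases upstream of the start, 5′ to 3′ on the strand of the gene, with the matches in capitals. The windows lie at chr11:58251571-58251720 on the + strand (Nfkbiz), chr6:78597073-78597222 on the - strand (Nfkbia), chr1:88613556-88613705 on the - strand (Bcl3) and chr1:15543980-15544129 on the - strand (Tnfaip3).
Nfkbiz: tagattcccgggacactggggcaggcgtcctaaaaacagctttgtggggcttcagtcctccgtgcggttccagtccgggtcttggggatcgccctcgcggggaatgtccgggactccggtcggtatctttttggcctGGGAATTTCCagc
Nfkbia: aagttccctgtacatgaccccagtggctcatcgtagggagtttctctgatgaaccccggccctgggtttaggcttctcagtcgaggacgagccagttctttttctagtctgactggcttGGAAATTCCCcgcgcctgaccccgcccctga
Bcl3: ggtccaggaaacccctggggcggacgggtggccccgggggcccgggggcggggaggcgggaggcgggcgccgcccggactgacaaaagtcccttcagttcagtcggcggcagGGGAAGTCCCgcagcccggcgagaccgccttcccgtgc
Tnfaip3: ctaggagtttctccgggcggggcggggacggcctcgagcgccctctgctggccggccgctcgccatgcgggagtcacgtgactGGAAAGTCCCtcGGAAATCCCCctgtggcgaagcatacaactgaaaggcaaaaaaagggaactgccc

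The IL-6 family, its receptors and the STAT3 and C/EBP factors rose in 20 of 26 cases and fell in 2 (median 0.56). Il6 was low in all libraries, at 0.349, 0.625, 0.39 and 0.461 CPM in control libraries and 3.11, 2.45, 2.16 and 2.1 CPM with IL-1β (2.42 ± 0.24, adjusted p = 1.54e-09). Il11 (1.45 ± 0.26) and Lif (0.76 ± 0.09), cytokines that signal through the same gp130 chain, also rose. On the receptor side the oncostatin M receptor Osmr (1.4 ± 0.04) and the shared chain Il6st (0.49 ± 0.03) rose, and so did Jak2, the kinase of cytokine and prolactin receptors (1.63 ± 0.03), while Jak1 was not called (0.02 ± 0.03) unless libraries were scaled by totals alone (0.07). Among the targets, Socs3, which shuts off gp130 signalling, was at 19.1, 18.1, 19.8 and 18 CPM in control libraries and 122, 121, 119 and 116 CPM with IL-1β, a 6.39-fold rise without overlap (2.68 ± 0.09, adjusted p = 1.19e-10). Cebpd (1.92 ± 0.09), Cebpb (0.86 ± 0.12) and Stat3 (0.45 ± 0.03) rose, and Cebpa was not called (0.14 ± 0.09).

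Secreted antimicrobial and acute-phase proteins held the largest rises of all genes at a mean of at least 2 CPM. Of 27 tested, 22 rose and 3 fell, with a median log2 fold change of 2.14. Reg3g, a lectin that binds Gram-positive bacteria, was at 0.254, 0.0781, 0.0488 and 0.0988 CPM in control libraries and 67.5, 63.9, 52 and 53.6 CPM with IL-1β (8.78 ± 0.22, adjusted p = 5.83e-13). Its neighbours Reg3b (7.13 ± 0.19) and Reg1a on chromosome 4 of GRCr8 rose as well. Reg3g and Reg3b had only 14 and 11 counts over the control libraries. These 3 genes passed the low-count filter through treated libraries, so their number does not show that the cluster moved together. Reg3a in the same run had 1 count over the control libraries and 4 over the IL-1β libraries and was not tested. Reg1a had 3 counts over the control libraries and 647 over the IL-1β libraries, a ratio of 232 with an exact 95% interval for counting error of 79 to 1128.

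Lcn2, the siderophore-binding lipocalin, reached much higher levels, 617, 575, 572 and 575 CPM against 12.3, 12.5, 11.2 and 10.7 CPM in control libraries (5.64 ± 0.04, adjusted p = 1.26e-34). Pla2g2a, a secreted phospholipase that kills bacteria and releases fatty acids, was at 7.65, 5.54, 8.59 and 5.47 CPM in control libraries and 539, 513, 540.4 and 550 CPM with IL-1β, 79.6-fold higher. Hpx, the haem scavenger hemopexin, was at 6.66, 4.84, 5.37 and 5.37 CPM and 446, 381, 363 and 359 CPM (6.11 ± 0.10, adjusted p = 5.8e-13). For all 3 genes every IL-1β library lay far above every control library.

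Protease inhibitors and complement proteins rose as well. The protease inhibitors Slpi (4.93 ± 0.24), A2m (4.12 ± 0.13) and Serpina3n (4.05 ± 0.24) rose strongly, although A2m has a near-identical row in the table that may share its reads. Slpil2, a row named for a relative of Slpi, had 3 counts over the control libraries and 106 over the IL-1β libraries, a ratio of 38 with an interval of 12.7 to 187.2. Complement factor Cfb (3.52 ± 0.09), C3 (2.93 ± 0.07), C1s (1.41 ± 0.04) and C1r (0.50 ± 0.03) rose. C1s gained the largest share of library counts of any gene ranked, going from 692 ± 33.1 to 1837 ± 36.9 CPM. Those that fell were haptoglobin, Hp (-0.35 ± 0.08), Wfdc1 (-0.74 ± 0.05) and lysozyme, Lyz2 (-1.03 ± 0.06), which is also a macrophage marker.

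Iron genes went both ways. Hamp, the hormone hepcidin that closes the iron exporter ferroportin, rose (2.6 ± 0.42) from 0.471 ± 0.342 to 2.95 ± 0.917 CPM. Slc40a1, the gene of ferroportin, fell from 94.5 ± 0.846 to 32.4 ± 0.846 CPM (-1.54 ± 0.04, adjusted p = 3.73e-22). Tfr2, a transferrin receptor that senses iron, rose 26-fold, with 0.412, 0.351, 0.488 and 0.231 CPM in control libraries and 9.21, 10.5, 9.73 and 8.68 CPM with IL-1β. Steap4, a ferric reductase (3.0 ± 0.11), and the metal importers Slc39a14 (1.16 ± 0.03) and Slc11a2 (0.31 ± 0.04) rose. Of the ferritin chains Fth1 rose (0.75 ± 0.03) and Ftl1 fell (-0.47 ± 0.06). The transferrin receptor Tfrc was called lower (-0.34 ± 0.10), but not without control replicate 1 or IL-1β replicate 2 (-0.297 to -0.294, adjusted p = 0.0506 to 0.0526). Of 30 antioxidant, metallothionein and iron genes 12 rose and 12 fell (median -0.10). Mitochondrial superoxide dismutase, Sod2, rose from 96 ± 5.26 to 408 ± 2.32 CPM (2.09 ± 0.03, adjusted p = 2.17e-26), while the secreted enzyme Sod3 fell (-0.37 ± 0.05). The cytosolic enzyme Sod1 was called higher (0.08 ± 0.03), a call lost in 10 alternatives (0.0565 to 0.0803, adjusted p = 0.0564 to 0.182), among them DESeq2, limma-voom and the fits without control replicate 1, 2 or 3 or IL-1β replicate 2, 3 or 4. Haem oxygenase 1, Hmox1, was called lower (-0.59 ± 0.18), but not without control replicate 1 or 3 or IL-1β replicate 2 or 4 (-0.544 to -0.491, adjusted p = 0.0527 to 0.0607). Metallothionein Mt2A rose (1.5 ± 0.07), and both subunits of glutamate-cysteine ligase, Gclc (-0.37 ± 0.05) and Gclm (-0.36 ± 0.05), fell.

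Chemokines rose in 20 of 27 cases and fell in 5 (median 1.05), and neighbouring CXC genes moved alike. In the RefSeq order of GRCr8, Cxcl2, Cxcl1, Cxcl3 and Cxcl6, ligands that draw neutrophils, stand close together on chromosome 14, and all 4 rose. Genes of other names may lie between the members of a run. Cxcl6 was at 0.857, 0.273, 0.634 and 0.329 CPM in control libraries and 29.3, 29.5, 33.2 and 28.6 CPM with IL-1β (5.83 ± 0.18, adjusted p = 5.67e-13). Cxcl1 was at 21.6, 16.3, 20.4 and 16.3 CPM in control libraries and 79.3, 88.3, 94.6 and 89 CPM with IL-1β (2.24 ± 0.09, adjusted p = 3.9e-09). Cxcl2 (3.27 ± 0.29) and Cxcl3 (2.41 ± 0.20) rose from lower levels. Another run on the same chromosome, Cxcl9, Cxcl10 and Cxcl11, whose products draw T cells after interferon, fell in all 3 cases. Cxcl10 was at 60.6, 57.5, 52.4 and 55 CPM in control libraries and 29.1, 21.8, 19.4 and 28 CPM with IL-1β (-1.2 ± 0.15, adjusted p = 7.89e-05). Cxcl9 (-1.3 ± 0.25) and Cxcl11 (-1.15 ± 0.28) fell from about 1 CPM or less.

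Among CC chemokines, the neighbours Ccl2 (2.05 ± 0.14), Ccl7 (2.23 ± 0.14) and Ccl12 (3.1 ± 0.13), which draw monocytes, rose, and Ccl11 in the same run was not called (-0.19 ± 0.22). In a further run Ccl6 (3.27 ± 0.14) and Ccl3 (1.05 ± 0.18) rose, Ccl9 rose by 0.74 ± 0.25 but was not called without control replicate 1 (0.63, adjusted p = 0.0586) or IL-1β replicate 3 (0.61, adjusted p = 0.0694), Ccl4 was not called (0.45 ± 0.31) and Ccl5 fell (-1.03 ± 0.23). Ccl20, the ligand of CCR6, rose from 0.276 ± 0.167 to 3.35 ± 0.618 CPM (3.52 ± 0.24, adjusted p = 6.88e-13). The most abundant chemokine was Cxcl12, the stromal ligand of CXCR4, which rose from 193 ± 5.48 to 728 ± 39.98 CPM (1.91 ± 0.04, adjusted p = 1.36e-23). Cx3cl1, the membrane-bound fractalkine, fell from 108 ± 6.53 to 62.7 ± 5.18 CPM (-0.79 ± 0.07, adjusted p = 1.64e-06). Sums of macrophage markers fell over the same libraries, as given above, and their part in these values was not tested.

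**Figure D4:**
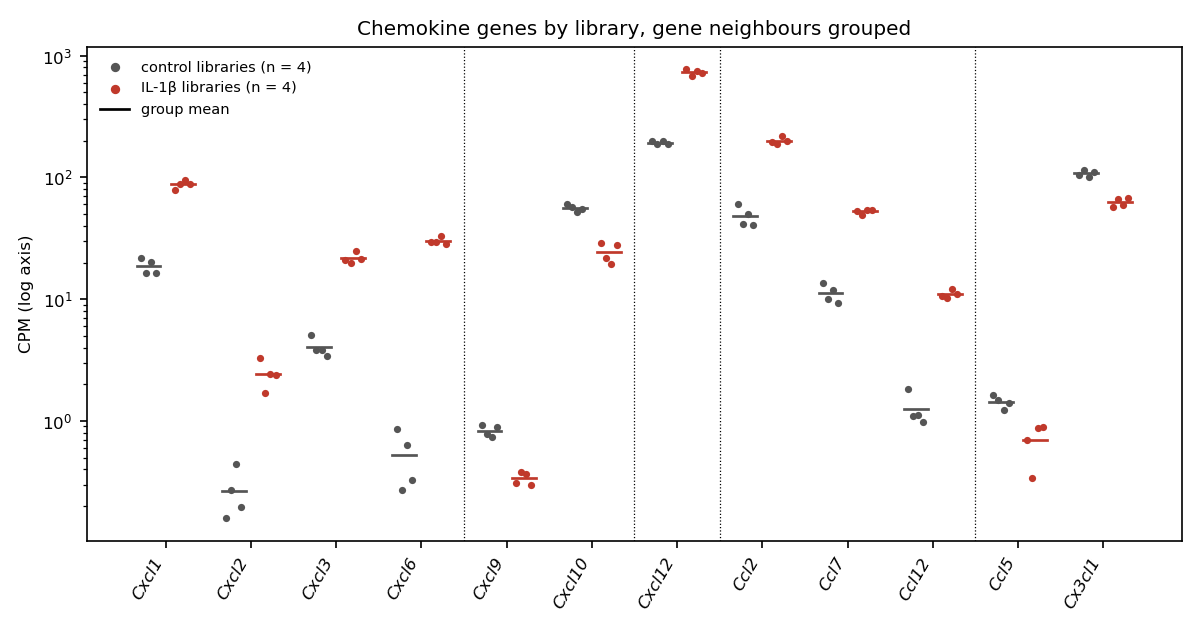
Levels in CPM (vertical log axis) of 12 chemokine genes in each of 4 control (grey) and 4 IL-1β (red) libraries, with bars at group means and dotted lines between the groups of genes. Cxcl1, Cxcl2, Cxcl3 and Cxcl6 lie higher with IL-1β in all libraries, and Cxcl9 and Cxcl10 lie lower.

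The promoters of these chemokine runs are shown because one run rose and the other fell. All 3 genes of the rising run with a RefSeq promoter, Cxcl1, Cxcl2 and Cxcl6, held the NF-κB motif, which 4.73% of all genes tested held, and in the falling run Cxcl9 held it and Cxcl10 and Cxcl11 did not. The motif made of GAAA, any 2 bases and GAAA, searched in the same way and chosen after the values were seen, is the core of the element read by interferon-regulated factors. It stood in Cxcl10 and not in Cxcl9 or Cxcl11, in Ifit3, and in 2.62% of all genes tested. Of genes that fell at least 2-fold 18 of 254 held it, 7.09%, and of those that rose at least 2-fold 10 of 411, 2.43%. Each line gives 150 bases 5′ to 3′ on the strand of the gene from within the 250 bases upstream, with matches to the NF-κB motif in capitals for the first 3 and to the GAAA repeat for the last 2. The windows lie at chr14:17479322-17479471, chr14:17467256-17467405 and chr14:17596418-17596567, all on the - strand, and at chr14:15988816-15988965 and chr1:241527176-241527325, both on the + strand. In Cxcl2 the first capital run holds overlapping matches.
Cxcl1: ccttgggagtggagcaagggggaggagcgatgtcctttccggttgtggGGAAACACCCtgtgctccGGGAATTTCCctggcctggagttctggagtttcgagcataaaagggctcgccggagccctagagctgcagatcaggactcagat
Cxcl2: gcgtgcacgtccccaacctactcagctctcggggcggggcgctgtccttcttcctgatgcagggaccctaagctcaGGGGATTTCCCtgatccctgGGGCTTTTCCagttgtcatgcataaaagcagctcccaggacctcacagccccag
Cxcl6: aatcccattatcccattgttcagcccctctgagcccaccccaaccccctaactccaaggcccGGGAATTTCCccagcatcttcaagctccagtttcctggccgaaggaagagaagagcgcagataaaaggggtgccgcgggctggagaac
Cxcl10: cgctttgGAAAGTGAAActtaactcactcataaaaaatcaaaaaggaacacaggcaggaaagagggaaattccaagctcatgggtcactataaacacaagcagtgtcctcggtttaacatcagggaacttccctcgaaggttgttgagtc
Ifit3: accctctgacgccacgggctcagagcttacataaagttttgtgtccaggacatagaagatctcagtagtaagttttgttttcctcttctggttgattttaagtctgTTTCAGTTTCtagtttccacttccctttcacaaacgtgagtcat

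Interferon response genes fell in 22 of 33 cases and rose in 5 (median -0.35). Ifit3, an inhibitor of viral replication and the owner of the last sequence above, was at 59.3, 56.2, 51.1 and 51 CPM in control libraries and 22.8, 12.8, 12.2 and 18 CPM with IL-1β, without overlap (-1.73 ± 0.26, adjusted p = 0.000373). Ifit1 (-1.44 ± 0.33), Isg20 (-1.17 ± 0.09), the antiviral GTPase Mx1 (-1.07 ± 0.14), Isg15 (-0.98 ± 0.14) and the factor Irf7 (-0.86 ± 0.11) fell. Rsad2, or viperin, was called lower (-1.04 ± 0.31), but not without IL-1β replicate 2 or 3 (-0.963 to -0.919, adjusted p = 0.0527 to 0.0568). The genes that rose were the receptor chains Ifnar1 (0.23 ± 0.03), Ifnar2 (0.63 ± 0.04), Ifngr1 (0.24 ± 0.03) and Ifngr2 (0.36 ± 0.04) and the factor Irf8 (0.54 ± 0.15). Macrophage marker sums fell over the same libraries, as given above, and their part in these values was not tested. The interferon gene Ifnb1 had 1 count over the control libraries and 1 over the IL-1β libraries.

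Prostaglandin genes changed at particular steps, with 11 of 24 higher and 5 lower (median 0.24). At the release of fatty acids Pla2g2a and Pla2g5 (2.05 ± 0.17) rose, and the cytosolic enzyme Pla2g4a rose less (0.40 ± 0.06). Ptgs2, the inducible cyclooxygenase COX-2, was at 3.87, 2.89, 2.73 and 2.44 CPM in control libraries and 10.2, 7.4, 9.29 and 9.02 CPM with IL-1β (1.58 ± 0.19, adjusted p = 1.41e-05), and Ptgs1 was not called (0.20 ± 0.13). Ptges, the terminal synthase of prostaglandin E2, went the other way, with 85.7, 108, 97 and 108 CPM in control libraries and 36.3, 41.5, 32.2 and 31.1 CPM with IL-1β (-1.5 ± 0.10, adjusted p = 2.51e-07). No library of either group overlapped for Ptgs2 or Ptges. Ptgds, the lipocalin-type synthase of prostaglandin D2, rose (3.48 ± 0.46). Of the genes that remove prostaglandins, the importer Slco2a1 (2.88 ± 0.11), the degrading dehydrogenase Hpgd (1.34 ± 0.25) and the reductase Ptgr1 (0.54 ± 0.06) rose, and the reductase Ptgr2 was not called (-0.10 ± 0.04). Ptgr2 was called lower with DESeq2 size factors and without the 10 most abundant genes (-0.107 and -0.11, adjusted p = 0.0409 and 0.0356). The same held without control replicate 3 or IL-1β replicate 2 (-0.114 and -0.125, adjusted p = 0.0459 and 0.0278). Of the receptors for prostaglandin E2, Ptger3 rose (1.87 ± 0.19) and Ptger4 fell (-0.87 ± 0.08). Alox15, a lipoxygenase that acts on the same fatty acids, rose 23.1-fold from 0.431 ± 0.0996 to 10.1 ± 1.29 CPM.

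Of 19 genes from cholesterol uptake to androgens and the enzymes that act on them, 16 rose and none was called lower (median 1.09). However, 1 member was called lower in 7 alternatives, among them DESeq2, limma-voom and the fit without IL-1β replicate 1. Scarb1, the receptor that takes up cholesterol from HDL, rose from 61.8 ± 3.94 to 132 ± 9.64 CPM (1.09 ± 0.05, adjusted p = 3.33e-12). Star, which carries cholesterol into mitochondria, was at 156, 134, 147 and 127 CPM in control libraries and 425, 389.7, 398 and 406 CPM with IL-1β (1.52 ± 0.07, adjusted p = 1.43e-08). Cyp11a1, which cuts the side chain of cholesterol, was at 3.9, 3.44, 3.56 and 3.29 CPM and 85.4, 73.7, 72.2 and 69.2 CPM in the same order (4.4 ± 0.13, adjusted p = 2.25e-11). Its electron donors rose too, the ferredoxin Fdx1 by 1.92 ± 0.06 and its reductase Fdxr by 1.28 ± 0.06. The 3 rows Hsd3b (2.92 ± 0.09), Hsd3b5 (3.04 ± 0.09) and Hsd3b6 (2.89 ± 0.10), copies of the next enzyme that are similar in sequence, rose by like amounts, and reads may be split between them.

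Cyp17a1, the enzyme that makes androgens and a defining gene of theca cells, was low in control cultures at 0.571, 0.546, 0.634 and 0.395 CPM. With IL-1β it was at 17.5, 17.1, 15.6 and 11.8 CPM, with replicate 4 the lowest of its group, a 29.1-fold rise without overlap (4.86 ± 0.31, adjusted p = 1.12e-07). The reductase Por that serves it rose by 0.36 ± 0.03 and cytochrome b5, Cyb5a, by 0.17 ± 0.05. Of the enzymes that act on the products, Cyp7b1 (2.33 ± 0.08), the 5α-reductase Srd5a1 (0.43 ± 0.09) and Akr1c14 (0.55 ± 0.04) rose. Aromatase, Cyp19a1, was called higher (1.46 ± 0.46, adjusted p = 0.0107), but it was below 0.5 CPM in all 8 libraries and the groups overlapped. Granulosa marker sums and endothelial marker sums were higher over the same libraries, as given above, and their part in these changes was not tested.

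**Figure D5:**
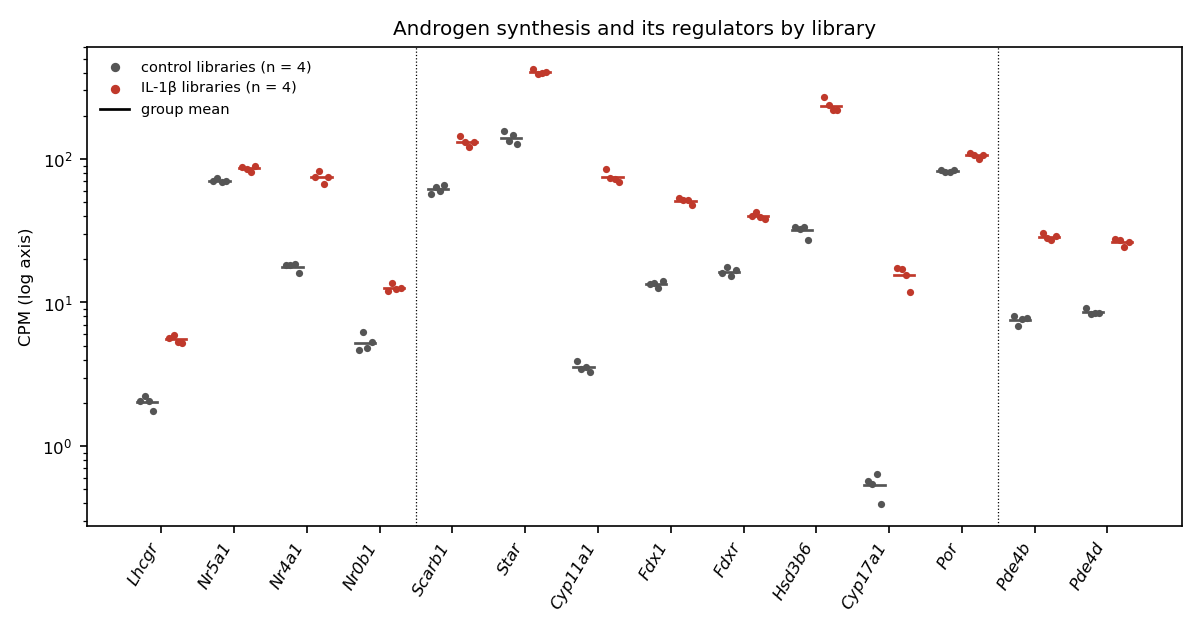
Levels in CPM (vertical log axis) of 14 genes of androgen synthesis and its regulators in each of 4 control (grey) and 4 IL-1β (red) libraries, with bars at group means and dotted lines between regulators, synthesis and phosphodiesterases. All IL-1β libraries lie above all control libraries for each gene drawn, with the widest gaps for Cyp11a1 and Cyp17a1.

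Upstream of these enzymes, 16 of 33 gonadotropin, cAMP and steroidogenic regulators rose and 4 fell (median 0.07). Lhcgr, the receptor of luteinizing hormone, was at 2.06, 2.23, 2.05 and 1.75 CPM in control libraries and 5.64, 5.92, 5.3 and 5.21 CPM with IL-1β (1.45 ± 0.14, adjusted p = 1.06e-09). The prolactin receptor Prlr rose by 1.53 ± 0.12. Of the nuclear receptors that act on steroid genes, Nr4a1 (2.09 ± 0.07) and Nr4a3 (1.45 ± 0.13) rose by more than the master factor Nr5a1 (0.29 ± 0.04). Inhibitory members rose as well, including Nr0b1, or Dax1, a repressor of Nr5a1 (1.27 ± 0.11), the cAMP-inducible Crem (0.60 ± 0.07) and the phosphodiesterases Pde4b (1.91 ± 0.07) and Pde4d (1.62 ± 0.06), which break down cAMP. Pde4b was at 8.0, 6.91, 7.71 and 7.77 CPM in control libraries and 30.4, 28.2, 27.4 and 28.9 CPM with IL-1β. Gata4 fell (-0.31 ± 0.03) and Gata6 rose (0.35 ± 0.05). Insl3, a peptide hormone of theca cells, rose by 1.09 ± 0.34, a call that was lost without IL-1β replicate 3 (0.82, adjusted p = 0.0744).

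Other signals known to act on theca cells moved in part. In the hedgehog pathway, by which granulosa cells recruit theca cells, 6 of 15 genes rose and 5 fell. The co-receptor Gas1 (1.02 ± 0.05) and the receptor Ptch1 (0.44 ± 0.05) rose, and the ligand trap Hhip (-0.97 ± 0.20) fell, while Gli1, a standard target, was not called (0.26 ± 0.13) except without IL-1β replicate 3 (0.33, adjusted p = 0.048) or with library totals alone. Retinoid genes rose in 13 of 20 cases and fell in 1 (median 0.48), with rises at the steps of oxidation to retinal (Rdh10, 0.95 ± 0.11), oxidation to retinoic acid (Aldh1a2, 1.09 ± 0.12, and Aldh1a1, 0.94 ± 0.05) and delivery to the receptor (Crabp2, 1.56 ± 0.14), and in the receptor Rarb (0.67 ± 0.19). Of 32 Wnt genes 16 rose and 5 fell, with the ligands Wnt4 (1.29 ± 0.07) and Wnt10b (1.78 ± 0.25), the receptor Fzd1 (1.06 ± 0.03), the target Axin2 (0.69 ± 0.08) and the binding protein Sfrp2 (2.05 ± 0.19) higher.

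Growth factors fell and rose in near equal numbers, 14 and 16 of 40. Igf1, an insulin-like growth factor that strengthens the response to luteinizing hormone, was at 625, 652, 649.9 and 655 CPM in control libraries and 214, 221, 213 and 212 CPM with IL-1β (-1.59 ± 0.03, adjusted p = 1.29e-24). Igfbp4, which binds and restrains it, was at 109, 99.4, 92.5 and 91.2 CPM in control libraries and 479.6, 515, 442 and 463 CPM with IL-1β (2.27 ± 0.11, adjusted p = 3.22e-08). In both genes the groups were far apart, in opposite directions. Igfbp3 rose (1.14 ± 0.14), and Igfbp5 (-1.15 ± 0.04) and Igfbp2 (-1.33 ± 0.08) fell. Fgf7, a stromal factor for epithelial cells, rose (2.16 ± 0.17) and Hbegf fell (-1.35 ± 0.07). Ereg, a ligand of the EGF receptor made around ovulation, rose from 0.198 ± 0.0486 to 1.51 ± 0.187 CPM, and Csf3, the granulocyte factor, from 0.0338 ± 0.0261 to 0.537 ± 0.145 CPM, both low in all libraries. Stem cell factor, Kitlg, rose by 0.82 ± 0.06.

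Genes of contraction formed the group with the lowest median. Of 29 tested, 25 fell and 3 rose (median -1.02), and their summed level went from between 15200 and 15900 CPM to between 7610 and 8380 CPM. Tagln, or SM22, was at 2286, 2424, 2371 and 2439 CPM in control libraries and 701, 716, 743 and 773 CPM with IL-1β, and it lost more of the library counts than any other gene ranked (-1.7 ± 0.04, adjusted p = 1.89e-20). Smooth muscle actin, Acta2, was at 1878, 2089, 1937 and 2021 CPM in control libraries and 595, 669, 633 and 711 CPM with IL-1β (-1.6 ± 0.07, adjusted p = 2.36e-09). Deeper fold falls were found in some genes that are known from heart muscle, Mybpc3 (-3.52 ± 0.09), Tnnt2 (-3.24 ± 0.12) and Casq2 (-2.87 ± 0.28). Mybpc3 went from 31.2 ± 2.11 to 2.7 ± 0.38 CPM, and Casq2 had 145 counts over the control libraries and 18 over the IL-1β libraries. Sarcomere genes did not all fall so far: Tnnc1 (-1.23 ± 0.24), Myl4 (-1.14 ± 0.18) and Actc1 (-0.16 ± 0.04) fell less, and Tnnt3 rose (1.41 ± 0.22). The thin filament genes Actg2 (-2.38 ± 0.05) and Lmod1 (-2.6 ± 0.10) and the smooth muscle myosin Myh11 (-2.0 ± 0.04) fell. Of their regulators, Srf was not called (0.00 ± 0.03) and its coactivator Mkl1 rose (0.27 ± 0.04). Its other coactivator Myocd, or myocardin, was called lower (-0.22 ± 0.07), but not with library totals alone or without control replicate 2 or 4 or IL-1β replicate 4 (-0.189 to -0.172, adjusted p = 0.0532 to 0.0675). Pericyte markers beyond Acta2, Myh11 and Cnn1 went both ways. Cspg4 and Pdgfrb fell, Kcnj8 (0.78 ± 0.08), Notch3 (0.73 ± 0.10) and Abcc9 (0.54 ± 0.10) rose and Rgs5 was not called (-0.08 ± 0.15).

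Rows named for the genes of miR-143 and miR-145, microRNAs that stand together in the genome and are known from smooth muscle, fell as well and were chosen after their values were seen. The counts are of polyadenylated RNA over each locus and do not measure the mature microRNA. Mir143 had 23, 14, 12 and 23 counts in the control libraries and 4, 3, 7 and 6 with IL-1β (-1.72 ± 0.37, adjusted p = 0.000354). Mir145 had 18, 36, 25 and 28 counts in the control libraries and 8, 11, 3 and 8 with IL-1β (-1.73 ± 0.35, adjusted p = 0.000157). The groups did not overlap in either row. The main mature forms in RefSeq (GRCr8) are given 5′ to 3′ with the seed, bases 2 to 8, in capitals, and the seeds are not shared.
rno-miR-143-3p: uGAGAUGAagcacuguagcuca
rno-miR-145-5p: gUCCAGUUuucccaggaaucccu

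The transforming growth factor β ligands Tgfb2 and Tgfb3 and several targets of the pathway fell. Of 30 genes of the TGF-β and activin pathway 14 fell and 10 rose (median -0.12). Tgfb3 was at 196, 201, 199 and 190.4 CPM in control libraries and 37, 40.2, 37.2 and 42.6 CPM with IL-1β, a 5.01-fold fall (-2.33 ± 0.06, adjusted p = 1.24e-13). Tgfb2 also fell (-1.22 ± 0.09), while Tgfb1 rose (0.31 ± 0.06) and so did both signalling receptors, Tgfbr1 (0.21 ± 0.03) and Tgfbr2 (0.21 ± 0.03). Standard targets fell, namely Ctgf (-1.43 ± 0.06), Tgfbi (-1.36 ± 0.12) and the inhibitor Smad7 (-0.23 ± 0.07). The binding proteins that store the ligands in matrix, Ltbp1 (-0.55 ± 0.03), Ltbp2 (-1.24 ± 0.10) and Ltbp4 (-0.69 ± 0.07), fell. Inhibin α, Inha, rose (0.94 ± 0.12), and the βA subunit Inhba fell (-0.38 ± 0.08). Among 23 BMP genes 9 rose and 6 fell, with lower Bmp4 (-1.78 ± 0.09) and Gdf6 (-2.22 ± 0.35) beside higher Bmp2 (0.56 ± 0.03), receptor Bmpr2 (0.81 ± 0.03) and target Id1 (0.66 ± 0.05).

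Matrix genes mostly fell, with named exceptions. Of 27 collagens and collagen enzymes 20 fell and 5 rose (median -0.44), and their sum went from between 26700 and 29500 CPM to between 19500 and 21700 CPM. Col1a1 (-0.52 ± 0.06) and Col1a2 (-0.79 ± 0.06, a row with a near-identical copy), the chains of type I collagen, fell, and Col3a1 was not called (0.03 ± 0.07). The collagens that rose most were Col5a3 (2.06 ± 0.09, adjusted p = 4.2e-12), from 10.9 ± 0.545 to 45.7 ± 3.21 CPM, and the basement membrane collagen Col15a1 (1.44 ± 0.10), a row with a near-identical copy. Of the type VI collagen chains Col6a1 rose (0.34 ± 0.10) and Col6a3 fell (-0.54 ± 0.08). Col6a2 was called higher (0.28 ± 0.09), a call lost in 7 alternatives (0.237 to 0.289, adjusted p = 0.0536 to 0.0804), which were no low-count filter and leaving out control replicate 1, 2 or 3 or IL-1β replicate 1, 2 or 4. Of 27 genes of elastic fibres, lysyl oxidases and small proteoglycans 17 fell and 7 rose (median -0.53). Elastin, Eln, fell from 125 ± 12.9 to 24.9 ± 3.66 CPM (-2.34 ± 0.12, adjusted p = 6.73e-08). Fbln5 (-1.95 ± 0.09), which guides elastin assembly, Mfap4 (-2.52 ± 0.08, a row with a near-identical copy) and Aspn (-2.37 ± 0.09) fell with it, and Efemp1 (1.49 ± 0.08) and the large proteoglycan Vcan (0.92 ± 0.05) rose.

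Proteases that cut matrix rose more often than they fell, 17 against 8 of 27 with their inhibitors (median 0.23). In the run of metalloprotease genes on chromosome 8 of GRCr8, Mmp3 (1.77 ± 0.18), Mmp10 (1.44 ± 0.26), Mmp12 (1.21 ± 0.11) and Mmp13 (1.96 ± 0.44) rose, each under 10 CPM. Mmp13 had only 14 counts over the control libraries and passed the low-count filter through treated libraries. The other members had 16 counts or fewer over either group and were not tested. Of these Mmp1, Mmp7 and Mmp8 had fewer counts with IL-1β, Mmp1b and Mmp20 more and Mmp27 the same. Mmp9, a gelatinase, rose from 2.36 ± 0.426 to 14.4 ± 1.91 CPM (2.59 ± 0.12, adjusted p = 8.16e-14), and the abundant gelatinase Mmp2 from 186 ± 14.9 to 352 ± 27.6 CPM (0.92 ± 0.09, adjusted p = 1.77e-05). The membrane-bound Mmp14 fell (-0.57 ± 0.03). Of the inhibitors, Timp1 rose (1.07 ± 0.03) and Timp2 (-0.18 ± 0.03) and Timp3 (-0.29 ± 0.03) fell. Adhesion genes were higher in 13 of 24 cases and lower in 7. Vcam1, the ligand of lymphocyte integrins, rose (1.16 ± 0.08) and Icam1 was not called (0.12 ± 0.05), although without control replicate 1 it was (0.17, adjusted p = 0.00438). Icam1 was also called higher with library totals alone, no low-count filter, limma-voom or the replicate block (0.113 to 0.166, adjusted p = 0.00274 to 0.0489). Selp (2.65 ± 0.34), Pecam1 (1.3 ± 0.12), Icam2 (1.08 ± 0.15) and Cdh5, which are known from endothelium, rose beside the endothelial markers, and the integrin chain Itgb1 fell (-0.76 ± 0.03). How far these adhesion genes moved with the amount of endothelial RNA was not tested.

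Lipid storage genes did not move as a block. Of 26 adipocyte and lipid droplet genes 12 rose and 9 fell (median 0.11). The lowest log2 fold change among genes at a mean of at least 2 CPM was that of Plin4, a coat protein of lipid droplets, at 12.2, 12.3, 10.5 and 12.1 CPM in control libraries and 0.499, 0.93, 0.329 and 1.41 CPM with IL-1β (-3.93 ± 0.20, adjusted p = 8.62e-12). The fatty acid carrier Fabp4 was at 5.2, 4.96, 6.34 and 4.94 CPM and 0.614, 0.592, 0.585 and 0.299 CPM (-3.32 ± 0.20, adjusted p = 1.03e-13). Pparg, the factor that drives both, fell less (-0.61 ± 0.09), as did the lipase inhibitor G0s2 (-1.2 ± 0.10). In contrast Cd36, a fatty acid importer (1.02 ± 0.08), the lipases Lipe (0.72 ± 0.08) and Mgll (0.76 ± 0.08), and the desaturase Scd (0.68 ± 0.03) rose. Scd went from 1211 ± 43.7 to 1946 ± 52.6 CPM, so it was far more abundant than the genes that fell. The adipocyte genes Adipoq and Plin1 had 8 and 6 counts over the control libraries and 5 and 4 over the IL-1β libraries and were not tested.

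Of 26 glycolysis genes 17 rose and 5 fell (median 0.28). The neuronal-type glucose transporter Slc2a3 (1.27 ± 0.05, a row with a near-identical copy) and the lactate exporter Slc16a3 (1.16 ± 0.20) rose most, and the insulin-sensitive transporter Slc2a4 fell (-0.98 ± 0.18). Of 30 respiratory chain subunits 2 rose and 11 fell, all by less than 0.3 on the log2 scale, and the split was 6 higher and 7 lower when libraries were scaled by totals alone. In the unfolded protein and integrated stress response 24 of 29 genes fell and 2 rose (median -0.26), from the chaperone Hspa5 (-0.27 ± 0.03) to the amino acid enzyme Asns (-0.53 ± 0.07) and the apoptosis factor Ddit3, or CHOP (-1.22 ± 0.08). The clear exception was Ddit4, an inhibitor of mTORC1, which rose from 13.3 ± 0.749 to 38.4 ± 3.66 CPM (1.52 ± 0.06, adjusted p = 9.75e-18). Arg1, the arginase of the urea cycle, rose 10.5-fold from 0.59 ± 0.0629 to 6.16 ± 0.516 CPM, Nos2, the inducible nitric oxide synthase, rose by 1.03 ± 0.09 and Gch1, the first step to its cofactor, by 1.39 ± 0.16. Arg2, the mitochondrial arginase, was called lower (-0.49 ± 0.16), but not without control replicate 1 or 4 or IL-1β replicate 3 or 4 (-0.459 to -0.401, adjusted p = 0.0546 to 0.0658). Irg1, which makes itaconate, fell (-1.62 ± 0.32).

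Glucocorticoid response genes gave no single direction, with 8 of 17 higher and 7 lower. Fkbp5 (0.75 ± 0.03) and Sgk1 (0.53 ± 0.04) rose, and Tsc22d3, or GILZ (-0.33 ± 0.05), Dusp1 (-0.60 ± 0.05) and the receptor Nr3c1 (-0.45 ± 0.03) fell. Of 29 genes of G2 and mitosis 16 fell, 55.2%, and none was called higher (median -0.14). Of 30 DNA replication genes 7 fell, 23.3%, close to the 23.0% of all genes, and 1 rose (median -0.07). In the G2 and mitosis list Kif23, a kinesin of the dividing cell's midzone, was at 113, 119.7, 121 and 118 CPM in control libraries and 57.6, 58.2, 63.3 and 56.5 CPM with IL-1β (-1.0 ± 0.06, adjusted p = 4.6e-10). The next largest fall in that list was Prc1 at -0.39 ± 0.05.

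Among genes picked by their own size and not by a list, several lost a large part of their counts. Prnp, the prion protein gene, was at 1343, 1466, 1381 and 1441 CPM in control libraries and 319, 336, 329.9 and 354 CPM with IL-1β (-2.07 ± 0.04, adjusted p = 1.13e-17). Dag1, which encodes dystroglycan, a link between matrix and cytoskeleton, went from 2545 ± 72.8 to 1293 ± 29.7 CPM (-0.98 ± 0.03, adjusted p = 1.41e-20). The actin-binding genes Flna (-0.56 ± 0.03) and Cald1 (-1.02 ± 0.05) fell. Among less abundant genes, Fam180a (-2.75 ± 0.12), Capn6 (-2.73 ± 0.14) and C1qtnf2 (-2.34 ± 0.09) fell by over 2 on the log2 scale. Gains in share of counts were led, after C1s, by Thbs1, the matrix protein thrombospondin 1, from 2492 ± 65.4 to 3468 ± 118 CPM (0.48 ± 0.03, adjusted p = 9.13e-12), and Scd. Their shares of library counts grew by 0.118 percentage points for C1s, 0.108 for Thbs1 and 0.0787 for Scd. Eef1a1, a translation factor whose row has near-identical copies, gained 0.0534 percentage points from a log2 fold change of 0.09 ± 0.03. Dmkn, an epithelial secreted protein, had 3 counts over the control libraries and 50 over the IL-1β libraries, a ratio of 17.9 with an exact 95% interval of 5.79 to 89.84.

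Gene families were taken by symbol. Of 38 proteasome genes 23 fell and none was called higher (median -0.09), and with libraries scaled by totals alone 9 fell and the median was -0.04. Of 98 ribosomal protein genes 54 rose and 6 fell (median 0.08), and 70 rose and 1 fell with totals alone. Of 291 zinc finger genes of the Zfp and Zbtb names 85 rose and 26 fell (median 0.06), so that 38.1% were called, fewer than the 47.7% of all genes, and 114 rose and 15 fell with totals alone. Over all genes the same change of scaling moved the median from 0.01 to 0.06.

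The IL-1β libraries were also set directly against the LPS libraries in the same fit, where 21.9% of genes were called, 10.6% higher and 11.3% lower with IL-1β. Of the 19 genes from cholesterol uptake to androgens and the enzymes that act on them, 10 were higher with IL-1β than with LPS and 2 lower. Cyp17a1 was at 15.5 ± 2.59 CPM with IL-1β and 3.39 ± 1.36 CPM with LPS (2.19 ± 0.21, adjusted p = 3.27e-05, IL-1β minus LPS), Cyp11a1 at 75.1 ± 7.12 and 31.7 ± 4.55 CPM (1.24 ± 0.09, adjusted p = 1.73e-06) and Lhcgr at 5.52 ± 0.324 and 2.61 ± 0.704 CPM (1.08 ± 0.13, adjusted p = 9.56e-07). Star did not pass the test (0.20 ± 0.07, adjusted p = 0.0686). Of the neighbours Cxcl1, Cxcl2, Cxcl3 and Cxcl6, 3 were lower with IL-1β and Cxcl6 was not called (-0.24 ± 0.09, adjusted p = 0.0637). Cxcl2 was at 2.45 ± 0.66 CPM against 11 ± 1.45 CPM with LPS (-2.15 ± 0.14, adjusted p = 2.57e-10) and Cxcl1 at 87.8 ± 6.31 against 172 ± 9.64 CPM (-0.97 ± 0.08, adjusted p = 7.62e-06).

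Of 15 macrophage markers 9 were higher with IL-1β than with LPS and 1 was lower (median 0.58), against 10.6% and 11.3% of all genes. The marker that was lower was Emr1, at 5.95 ± 0.57 against 21.9 ± 0.974 CPM (-1.88 ± 0.07, adjusted p = 2.87e-16). Cd163 was among those higher, at 0.761 ± 0.211 against 0.0364 ± 0.0286 CPM (4.23 ± 0.49, adjusted p = 3.46e-07). The interferon target Ifit3 was lower with IL-1β, 16.5 ± 4.97 against 38.7 ± 13.8 CPM (-1.23 ± 0.27, adjusted p = 0.0103), as was Cxcl10 (-1.15 ± 0.15, adjusted p = 0.000444). Il1b, not called between IL-1β and control, was at 0.861 ± 0.331 CPM with IL-1β and 11.4 ± 0.455 CPM with LPS (-3.71 ± 0.15, adjusted p = 2.87e-16). The contractile gene Mybpc3 (0.26 ± 0.14, adjusted p = 0.201) and the ligand Tgfb3 (0.09 ± 0.07, adjusted p = 0.385) did not pass the test between the treatments, with IL-1β and LPS levels of 39.3 ± 2.65 and 36.8 ± 4.03 CPM for Tgfb3.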

How the data were processed

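Raw read counts were deposited as 1 table with a row per gene symbol and a column per library. The submitters' processing notes name TopHat2 2.1.1, SAMtools, DESeq2 and the build Rnor_6.0. The counting program, annotation and strand setting are not given in the sources used here, so reads of overlapping genes or near-identical copies may be shared between rows.

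From these counts, edgeR 4.0.16 (R 4.3.3) was fitted to all 12 libraries with 3 groups: filterByExpr, TMM (factors 0.976 to 1.02), robust quasi-likelihood, two-sided F-tests and Benjamini-Hochberg adjustment. The SE is the absolute log2 fold change over the root of F. TMM-scaled totals gave CPM. Alternatives were other scalings and filters, DESeq2 1.42.0, limma-voom (limma 3.58.1), the 8 libraries alone, a replicate block, stricter thresholds and each library left out.

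The members and gene lists were chosen with earlier results of these data known. Of 902 list memberships 849 were tested, and some members are counted but not reported here by name. Named genes are the 12 highest and 12 lowest log2 fold changes among called genes at a mean of at least 2 CPM, the 8 largest gains and losses in share of counts, genes near 0 counts in 1 group, gene neighbours, and list members with the smallest p or ordered by role. Promoters and microRNAs came from RefSeq (GRCr8), which also gave gene order. In simulated data of 17067 genes, 50 were changed at each size. Calls reached 74% of those changed 1.25-fold, 84% of those changed 1.5-fold, 94% for 2-fold and 100% for 4-fold changes, with 14 false calls. The share of genes changed there was far below the 47.7% called in the data, so these rates do not carry over directly.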

Additional observations from a re-analysis of the deposited data

Results flagged for a closer look

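In each group of 4 libraries, the highest or lowest value was set against the other 3 by its gap as a share of the range. A gap above Dixon's 95% critical value was found in 35 of 560 groups, over 280 genes, and chance gives about 1 in 20. No cause was tested. Values are in CPM. Control replicate 1 was the highest of its group in Bcl3 (8.19, others 6.65 to 6.91), Ccl12 (1.84, others 0.988 to 1.12), Cdh5 (72.6, others 61 to 62.5), Col15a1 (83.5, others 72 to 72.4) and Pde4d (9.17, others 8.35 to 8.46). Control replicate 1 was the lowest of its group in Ctgf (1410, others 1461 to 1469). Control replicate 2 was the highest of its group in Mgll (11, others 9.98 to 10.2). Control replicate 2 was the lowest of its group in Mmp10 (0.195, others 0.488 to 0.539). Control replicate 3 was the highest of its group in Icam2 (3.12, others 2.5 to 2.6) and Mmp13 (0.293, others 0.0781 to 0.0988). Control replicate 3 was the lowest of its group in Abcc9 (66.2, others 73.6 to 74.5), G0s2 (12.8, others 16.9 to 17.2) and Plin4 (10.5, others 12.1 to 12.3). Control replicate 4 was the highest of its group in Cebpb (15.7, others 11.7 to 12.3). Control replicate 4 was the lowest of its group in Hsd3b6 (27.4, others 32.7 to 33.7) and Nr4a1 (16.1, others 18.1 to 18.4). IL-1β replicate 1 was the highest of its group in Cd163 (1.07, others 0.634 to 0.695), Isg15 (79.3, others 55.9 to 57.9), Lcn2 (617, others 572 to 575) and Ptgs1 (3.34, others 2.66 to 2.74). IL-1β replicate 1 was the lowest of its group in Fam180a (1.54, others 2.16 to 2.18). IL-1β replicate 2 was the highest of its group in Hpgd (1.14, others 0.921 to 0.951) and Rel (5.07, others 3.89 to 4.03). IL-1β replicate 2 was the lowest of its group in Ccl7 (49, others 53.4 to 54.2) and Selp (0.634, others 0.94 to 0.998). IL-1β replicate 3 was the highest of its group in Gas1 (81.1, others 74.3 to 74.7), Icam1 (117, others 111 to 112) and Insl3 (0.732, others 0.384 to 0.427). IL-1β replicate 3 was the lowest of its group in Fzd1 (253, others 269 to 272) and Stat3 (316, others 324 to 325). IL-1β replicate 4 was the highest of its group in Flna (3430, others 3162 to 3198), Lmod1 (13.8, others 11 to 11.4) and Myh11 (57.1, others 50.1 to 50.6). IL-1β replicate 4 was the lowest of its group in Fabp4 (0.299, others 0.585 to 0.614) and Myocd (10.5, others 12.3 to 12.5).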

How the results depend on the processing

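The counts of 4273 genes higher and 3988 lower stayed within 1.5 times under every alternative run except a test against a minimum fold of 1.5 (edgeR's glmTreat), which gave 773 higher and 500 lower. Leaving out each library in turn gave 3935 to 3987 higher and 3686 to 3769 lower, and no gene called was called in the opposite direction under any of these alternatives. The replicate block gave 4392 higher and 4152 lower. Libraries with the same number correlated between -0.033 and 0.0356 in their deviations from the group means, so the numbers were not taken to pair the samples.

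Of 266 called genes named here, 10 lost their call in at least 1 of 18 alternatives, as given above: Arg2, Ccl9, Cd8a, Col6a2, Hmox1, Insl3, Myocd, Rsad2, Sod1 and Tfrc. Genes that changed sign were all near 0 and not called. Srf, at 0.000479, became -0.00681 with DESeq2 size factors, -0.00238 with no low-count filter, -0.00546 in DESeq2 and -0.0101 without the 10 most abundant genes. Traf3, at 0.000448, became -0.00681, -0.00262, -0.00577 and -0.0101 under the same alternatives and -0.00027 with the replicate block. With each library left out in turn the log2 fold changes ranged from -0.291 to 0.123 for Il1b, from -0.168 to 0.0544 for Rgs5, from -0.00322 to 0.0691 for Col3a1, from -0.00923 to 0.0117 for Srf and from -0.0177 to 0.0235 for Traf3. The causes were not tested.

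Of 76 list counts 14 moved over 1.5 times in at least 1 alternative. With library totals alone, members lower went from 5 to 3 in the prostaglandin, glycolysis and Wnt lists, and the Wnt count was also 3 without control replicate 1 or 2. Depth limits the genes under 1 CPM, where the median SE was 0.296 on the log2 scale, against 0.0304 at 100 CPM or more.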
